A study of Mus musculus with 30 samples.

Results

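The 10 genes described here mark lymphocytes in mouse liver: Cd3e, Cd3g and Cd8a for T cells, Ccl5, Nkg7 and Gzma for cytotoxic T and natural killer (NK) cells, Cd79a and Ighm for B cells, and Igkc and Jchain for plasma cells. They were listed by name, with earlier results of these data known, and all 10 were found once each among the 51826 gene identifiers of the count table. The RNA came from the frozen left lobe of livers of male mice, and the strain label reads C57BL16. The irradiated mice had received 0.2 Gy of 56Fe ions, a heavy charged particle of the kind found in space radiation, at 600 MeV/n, and the control mice no irradiation. Months 1, 2, 4, 9 and 12 stand here for collection on days 30, 60, 120, 270 and 360 after irradiation. There were 3 biological replicates in each of the 10 groups and no genetic change was named for any of them. Each library came from thin slices of whole liver, and the labels name no sorting of cells.

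T cells read antigen through a receptor that signals by way of the CD3 proteins, and cytotoxic T cells also carry CD8. Cytotoxic T and NK cells kill by granules and release chemokines. B cells carry a membrane antibody whose signal passes through CD79, and some of them mature into plasma cells, which secrete antibody in large amounts and turn much of their transcription over to antibody chains. The liver holds many NK and T cells, lies in the path of gut antigens and hosts scattered B and plasma cells, so antibody transcripts are a known minor part of whole-liver RNA. Each B cell and its progeny use 1 rearranged variable segment per antibody chain.

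The libraries held 7995248 to 20215995 counts. Values are in CPM, read counts scaled to a common library size with TMM factors. Changes were tested with edgeR's quasi-likelihood test over 19685 genes, and a gene is said to pass at a Benjamini-Hochberg adjusted p under 0.05. The test covered 9 of the 10 genes, because Gzma was too low for the count filter. The hepatocyte gene Alb (albumin) held 2.01 to 6.81% of counts and the pan-leukocyte gene Ptprc 0.00136 to 0.0101%. Libraries of the later months differed in composition from those of the first: the non-coding Gm26917 took 0.452 to 2.04% of counts at months 4, 9 and 12 and 3.04 to 7.57% at months 1 and 2. Month and library composition cannot be told apart across that step, so changes over time were also read within months 4, 9 and 12. In whole tissue, a change in the number of cells of a type and a change in RNA per cell cannot be told apart.

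The 10 genes were detected in every library but at very unequal levels. The antibody genes were the abundant members: per kilobase of exon, Ighm averaged 11.7 CPM over the 30 libraries, Igkc 9.49 CPM and Jchain 1.39 CPM. The other 7 were near the limit of detection, with averages per kilobase between 0.116 CPM for Cd8a and 0.434 CPM for Nkg7. None of those 7 exceeded 20 counts in any library. A statement about T or NK cells therefore rests on very few reads.

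The 3 antibody genes were the members that changed, and they did so with time. Ighm (chr12:113418558-113422730 on GRCm38) encodes the constant region of the IgM heavy chain. In 56Fe livers its CPM averaged 3.83 ± 0.736, 6.5 ± 1.02, 15.3 ± 5.64, 30.7 ± 19.7 and 38.1 ± 41.7 at months 1, 2, 4, 9 and 12 (SD, n = 3 each). In control livers the averages were 6.85 ± 0.623, 3.19 ± 0.781, 10.1 ± 4.15, 23.7 ± 7.21 and 81.7 ± 62.4 CPM at the same months. In both arms the ranges of months 4, 9 and 12 lay mostly above those of months 1 and 2. In control livers the order ran month 2, 1, 4, 9, 12, and of the neighbours in it months 1 and 4 alone overlapped. In 56Fe livers it ran month 1, 2, 4, 9, 12, with months 9 and 12 each overlapping the one before.

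At month 12 the individual 56Fe livers had 84.7, 4.09 and 25.7 CPM of Ighm, and the control livers 38.5, 153 and 53.2 CPM. At month 4 the 56Fe livers had 10.6, 21.5 and 13.8 CPM and the control livers 7.49, 14.9 and 7.97 CPM. The 3 control livers of month 12 were all above those of month 4. In the 56Fe arm 1 liver of month 12, replicate 2, was below every liver of month 4.

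Igkc (chr6:70726435-70726966), the constant region of the kappa light chain that most mouse antibodies carry, stayed low until month 4. Its averages in 56Fe livers were 1.75 ± 1.49, 1.31 ± 0.282, 1.42 ± 0.224, 7.14 ± 4.34 and 14.6 ± 9.64 CPM at months 1, 2, 4, 9 and 12 (SD, n = 3 each). In control livers they were 2.46 ± 0.841, 2.19 ± 1.49, 0.819 ± 0.412, 2.62 ± 0.652 and 16.2 ± 20.2 CPM. All 6 livers of month 12 were above all 6 of month 4. The month 12 values were 19, 21.2 and 3.51 CPM in 56Fe livers and 3.73, 39.5 and 5.45 CPM in control livers. At month 4 they were 1.3, 1.68 and 1.27 CPM in 56Fe livers and 0.382, 0.873 and 1.2 CPM in control livers. Most of the month 12 average therefore came from 2 of the 3 56Fe livers and 1 of the 3 control livers. A non-coding gene, Gm30211, overlaps Igkc on the same strand. STAR's GeneCounts mode does not count a read that overlaps more than 1 gene, so the level of Igkc is uncertain.

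Jchain (chr5:88519809-88527891) encodes the joining chain that links IgM and IgA into polymers and is made by antibody-secreting cells. Its averages in 56Fe livers were 1.59 ± 0.495, 1.66 ± 0.487, 1.64 ± 0.388, 3.98 ± 1.57 and 9.52 ± 5.98 CPM at months 1, 2, 4, 9 and 12 (SD, n = 3 each). In control livers they were 1.93 ± 0.208, 1.88 ± 0.518, 1.06 ± 0.0254, 1.92 ± 0.892 and 9.73 ± 11.4 CPM. The 6 livers of month 12 again stood above the 6 of month 4. They had 15.4, 9.71 and 3.44 CPM in 56Fe livers and 2.46, 22.9 and 3.84 CPM in control livers. At month 4 the 56Fe livers had 1.51, 1.34 and 2.08 CPM and the control livers 1.07, 1.07 and 1.03 CPM.

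**Figure D1:**
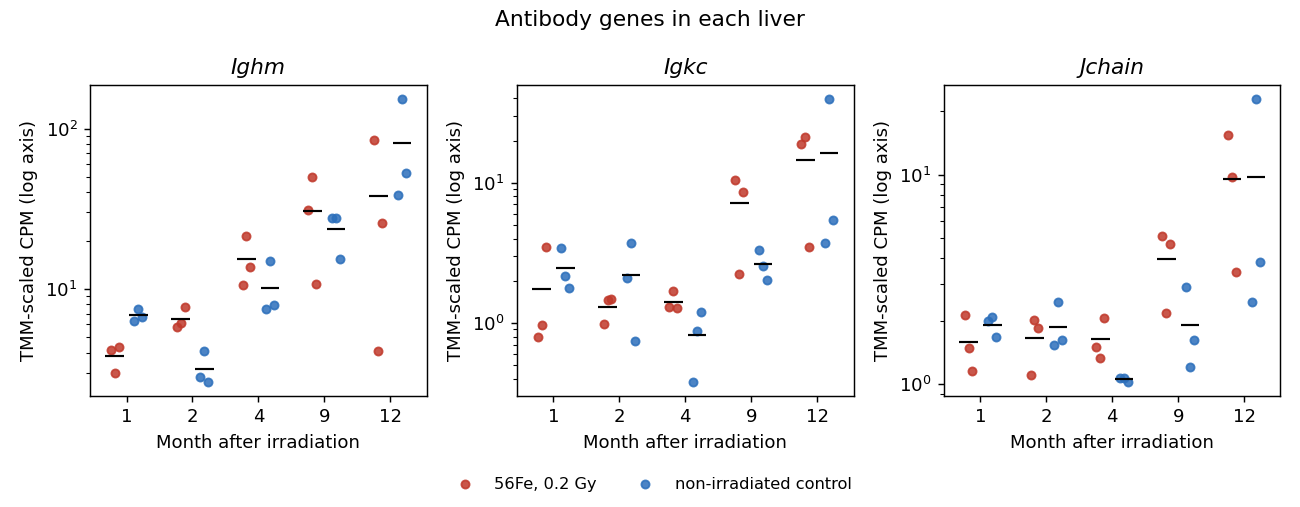
Level of Ighm, Igkc and Jchain in each liver by month, in TMM-scaled CPM on a log axis. Each point is 1 liver, 56Fe left of control, and the bar is the group mean (n = 3). Igkc and Jchain lie above their month 4 values in all 6 livers of month 12, while 1 56Fe liver of month 12 has 4.09 CPM of Ighm.

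Averaged over both arms, month 12 was higher than month 4 for all 3 antibody genes (edgeR). Jchain was 7.26-fold higher (log2 difference 2.86, SE 0.46, adjusted p = 0.000741). Igkc was 14.2-fold higher (log2 difference 3.83, SE 0.63, adjusted p = 0.00097). Ighm was 4.47-fold higher (log2 difference 2.16, SE 0.50, adjusted p = 0.00793), with 5 of the 6 livers of month 12 above every liver of month 4. So 3 of the 9 genes tested passed, all upward, where 14.8% of all genes tested passed and 8.6% were higher. Without control replicate 2 and 56Fe replicate 1 of month 12, Igkc and Jchain still passed with log2 differences of 2.78 and 1.76, and Ighm did not (1.02, adjusted p = 0.0994).

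Within control livers the 3 genes passed for month 12 against month 4, with log2 differences of 4.31 for Igkc, 3.19 for Jchain and 3.00 for Ighm. Without control replicate 2 of month 12 they were 2.46, 1.54 and 2.14 for Igkc, Jchain and Ighm, and all 3 still passed. There 22.2% of all genes passed, and 12.6% were higher, with all libraries in the fit. The control livers of month 12 also held more Gm26917, at 1.33 to 2.04% of counts, against 0.469 to 0.508% at month 4, and its part in these differences was not tested beyond the following values. When the level of Gm26917 entered the fit as a covariate, the log2 differences over both arms were 2.76 for Ighm, 3.84 for Igkc and 2.77 for Jchain, with edgeR adjusted p-values of 0.156, 0.108 and 0.117.

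Within 56Fe livers none of the 9 genes passed for month 12 against month 4 by edgeR, where 0.0864% of all genes did. The log2 differences were 3.36 for Igkc, 2.53 for Jchain and 1.32 for Ighm, with adjusted p-values of 0.171, 0.142 and 0.566. At an unadjusted p under 0.05, 2 of the 9 passed, Igkc and Jchain. DESeq2 and limma voom each called those 2. For Igkc the adjusted p was 0.00953 by DESeq2 and 0.0467 by voom. For Jchain it was 0.00512 by DESeq2 and 0.0306 by voom. Without 56Fe replicate 1 the difference for Ighm was -0.11. The change from month 4 to 12 was not shown to differ between the arms: the 56Fe change minus the control change was -0.95 for Igkc, -0.66 for Jchain and -1.68 for Ighm on the log2 scale, and 0 of 9 genes passed that test by edgeR, with 0 at an unadjusted p under 0.05 (5.37% of all genes passed). Without control replicate 2 of month 12 the sign turned for Igkc, at 0.88, and Jchain, at 0.97, and Ighm was at -0.84, again with no call. The irradiation difference at month 12 itself was -0.15 for Igkc, -0.03 for Jchain and -1.10 for Ighm. Leaving out control replicate 2 gave 1.66, 1.58 and -0.275 in the same order (edgeR adjusted p = 0.359, 0.162 and 0.91). Leaving out 56Fe replicate 1 of month 12 instead gave -0.402, -0.579 and -2.51 (edgeR adjusted p = 0.899, 0.771 and 0.213).

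Steps between neighbouring months were added after the values were seen. From month 2 to month 4, which is also the step in library composition, Ighm alone of the 9 was higher over both arms (log2 difference 1.46, adjusted p = 0.0287), where 53.4% of all genes passed and 26.3% were higher. Month 9 against month 4 gave no call by edgeR (0.00508% of all genes), with all 3 antibody genes under an unadjusted p of 0.05 and log2 differences of 2.00 for Igkc, 1.11 for Ighm and 1.06 for Jchain. Month 12 against month 9 gave 2 calls (14.9% of all genes, 8.46% higher), Igkc at 1.83 and Jchain at 1.80, while Ighm was at 1.05 (adjusted p = 0.144).

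Against month 1, the same 3 of 9 genes were higher at month 12 in 56Fe livers, with log2 differences of 3.32 for Ighm, 3.09 for Igkc and 2.57 for Jchain. Without 56Fe replicate 1 of month 12 the difference for Ighm was 1.91 (adjusted p = 0.0396). In control livers the differences were 3.58, 2.70 and 2.33 for Ighm, Igkc and Jchain. Passing genes made up 46.2% of all genes in 56Fe livers (26.1% higher) and 37.1% in control livers (23.1% higher). In each arm 3 of 9 was below the share of all genes that passed and somewhat above the share that were higher. Without control replicate 2 of month 12, Ighm alone passed in control livers, and Igkc was at 0.89 (adjusted p = 0.355). Over all 5 months, the F-test for any change passed for the same 3 of 9 genes in 56Fe livers (59% of all genes) and in control livers (58.3%). In control livers Igkc and Jchain lost the call without replicate 2 of month 12 (adjusted p = 0.131 and 0.107) and by limma voom (0.0555 and 0.165). In 56Fe livers all 3 lost it with the Gm26917 covariate, at 0.743 for Ighm, 0.201 for Igkc and 0.173 for Jchain. With that covariate the log2 differences for month 12 against month 1 in 56Fe livers were 1.05 for Ighm, 3.08 for Igkc and 2.88 for Jchain. In control livers they were 2.82, 2.69 and 2.43 in the same order, and none passed in either arm. Month 2 against month 1 gave 0 of 9 by edgeR, DESeq2 and limma voom, with 1 under an unadjusted p of 0.05 (9.49% of all genes passed).

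The late livers differed from one another in which antibody class they held. Constant regions of the heavy chain define the class: Ighm gives IgM, the first class a B cell makes, Ighg1, Ighg2b, Ighg2c and Ighg3 give IgG, and Igha gives IgA, the class typical of the gut. In 56Fe replicate 2 of month 12, Ighm was 4.66% of the 1372 heavy-chain constant counts (Wilson 95% interval 3.67 to 5.91%), and the IgG genes were 88.6%. In the other 2 56Fe livers of that month Ighm was 89.7 and 72.8%, and in the 3 control livers 82.1, 77.4 and 80.4%. The 56Fe liver that looked poor in Ighm was thus rich in IgG transcripts.

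In CPM that liver had 33.8 of Ighg1, 24.8 of Ighg2b and 18.7 of Ighg2c. The other 56Fe livers of month 12 had 2.82 and 0.789 CPM of Ighg2b, and the control livers 1.13, 17.6 and 0.897 CPM. At month 9 the IgG genes were 50.9 and 46.9% of heavy-chain constant counts in 56Fe replicates 1 and 3, 3.64% in 56Fe replicate 2, and 6.24 to 9.18% in the 3 control livers. At month 4 they were 7.64 to 9.82% in 56Fe livers and 7.04 to 10.8% in control livers. Among control livers after month 4 the highest share was 19.2%, in replicate 2 of month 12, beside its high Ighm. In level the IgG genes summed to 39.5 and 14.5 CPM in 56Fe replicates 1 and 3 of month 9 and 77.7 CPM in 56Fe replicate 2 of month 12, against 38.1 CPM in that control liver. At month 1 the IgG shares were 24.8 to 61.4% in 56Fe livers and 23.8 to 49.8% in control livers at month 1, at 1.94 to 9.83 CPM in 56Fe livers and 3.85 to 10.1 CPM in control livers. At month 2 they were 8.75 to 13.4% in 56Fe livers and 35.4 to 60.7% in control livers, at 0.915 to 1.94 CPM in 56Fe livers and 3.05 to 12.4 CPM in control livers. Neutrophil genes were high in the IgG-rich 56Fe livers too: the 13 listed summed to 20.2 and 15.6 CPM in replicates 1 and 3 of month 9, with 5.19 CPM in replicate 2, and to 29.1 CPM in replicate 2 of month 12, with 4.85 and 5.52 CPM in the others. The 10 bile duct (cholangiocyte) genes had high sums in the same livers. They summed to 262 and 165 CPM in 56Fe replicates 1 and 3 of month 9, with 117 CPM in replicate 2. At month 12 they summed to 238 CPM in 56Fe replicate 2, with 145 and 119 CPM in the others. In control replicate 2 of that month they summed to 135 CPM, with 134 and 89.6 CPM in the others. Single genes did not all follow. In 56Fe replicate 2 of month 12, Krt19 was at 0.511 CPM, with 0.655 and 0.359 CPM in the others. Epcam was at 0.702 CPM there, with 0.983 and 0.502 CPM. Krt19 and Epcam were at 1.21 and 4.58 CPM in 56Fe replicate 1 of month 9. They were at 0.479 and 1.37 CPM in replicate 3 and 0.0752 and 1.05 CPM in replicate 2. Replicate 3 of month 9 also had 971 CPM of Kupffer cell genes and 114 CPM of pan-leukocyte genes, and the part of these cells was not tested. These shares are descriptions with no test, and intervals cover counting error only.

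Ighg2c and Ighg2b also passed for month 12 against month 4 over both arms, with log2 differences of 3.99 (adjusted p = 0.00751) and 3.50 (adjusted p = 0.015, edgeR). Ighg1 passed at 4.40 (adjusted p = 0.022). Their averages hide the spread: Ighg1 ranged from 0.281 to 33.8 CPM among the 6 livers of month 12, and from 0.137 to 0.47 CPM among the 6 of month 4.

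**Figure D2:**
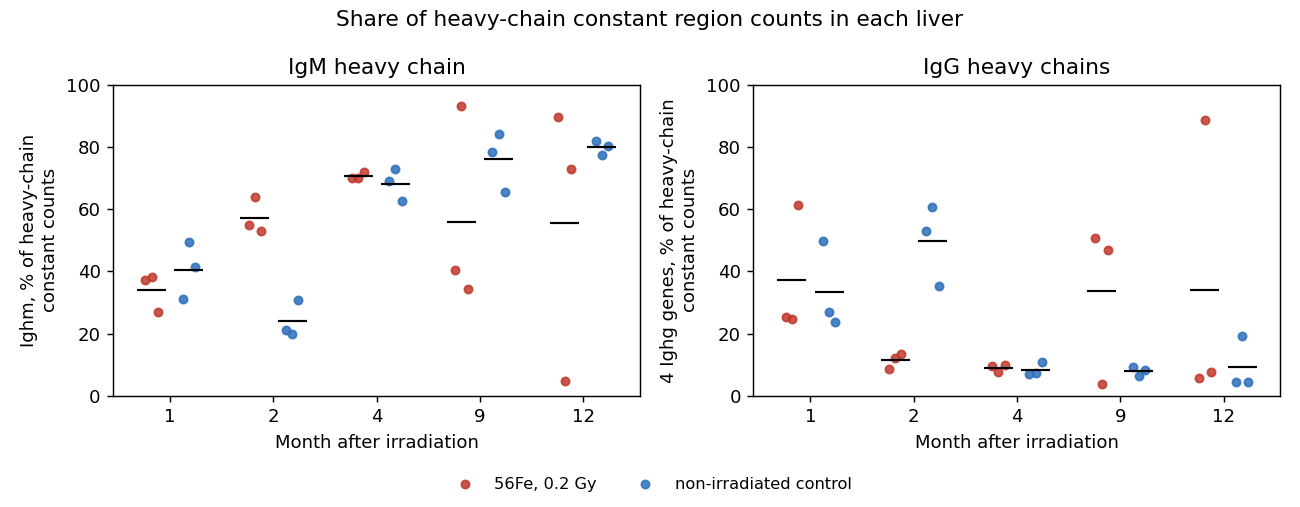
Share of Ighm (left) and of the 4 Ighg genes (right) in the counts of heavy-chain constant regions, in percent, by month. Each point is 1 liver, 56Fe left of control, and the bar is the group mean (n = 3). At month 12, 1 56Fe liver has 4.66% Ighm and 88.6% IgG, while the control livers have 77.4 to 82.1% Ighm.

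Control replicate 2 of month 12 had the highest levels of Ighm, Igkc and Jchain, and other leukocyte genes were high in it too. The 10 genes of the pan-leukocyte list summed to 253 CPM there, against 50.2 and 49.6 CPM in the other control livers and 69.9, 78.6 and 58.9 CPM in the 56Fe livers of that month. The 13 Kupffer cell genes, which mark the resident macrophages, summed to 1559 CPM there and to 261 and 307 CPM in the other control livers. Of that list, Clec4f was at 157 CPM there and at 59 and 68.2 CPM in the other control livers. Across the other 29 libraries Clec4f ranged from 59 to 175 CPM. The 13 neutrophil genes summed to 89.3, against 6.4 and 5.96 CPM. Cxcl13, a chemokine that draws B cells into follicles, was at 134 CPM there and at most 21.2 CPM in the other 29 libraries (named, like Ptprc, after its values were seen). The 28 B cell genes, Ighm among them, summed to 289 CPM there and to 112 and 135 CPM in the other control livers. The 32 NK and cytotoxic genes summed to 23 CPM there and to 10.5 and 12.4 CPM. The 35 T cell genes summed to 53.7 CPM there and to 48.5 and 53.1 CPM in the other control livers. No gene of these lists was at 0 in all libraries. The part of these cells in the antibody values was not tested.

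Variable segments showed a second way in which single livers differed. In 56Fe replicate 1 of month 12, 210 of 332 counts on heavy-chain variable segments fell on Ighv1-26, or 63.3% (Wilson 95% interval 57.9 to 68.3%). In the same liver 337 of 463 counts on kappa variable segments fell on Igkv5-39, or 72.8% (68.6 to 76.6%). In the other 29 libraries the most counted segment held 3.66 to 15.7% of heavy-chain and 4.17 to 19.6% of kappa segment counts. The remaining counts of that liver, 122 heavy-chain and 126 kappa, were spread over the other segments and were close in number to the totals of 56Fe replicate 3, at 142 and 134. By contrast, the IgG-rich 56Fe replicate 2 had 465 heavy-chain counts over 89 segments, with 6.88% on the first. Control replicate 2 had 542 over 85 segments, with 8.67% on the first. The first segment in both of these livers was again Ighv1-26, with 32 and 47 counts.

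The last 90 transcribed bases of both leading segments are shown, with the closest relative of the heavy-chain one, to show how alike neighbouring segments are. They are germline sequences of Gencode M21 on GRCm38, not reads, and all lie on the minus strand. Ighv1-26 spans chr12:114788372-114788461 here, Ighv1-18 chr12:114682632-114682721 and Igkv5-39 chr6:69900424-69900513. Capitals mark TATTACTGT, the codons that end in the conserved second cysteine of a variable domain, just before the joint.
Ighv1-26: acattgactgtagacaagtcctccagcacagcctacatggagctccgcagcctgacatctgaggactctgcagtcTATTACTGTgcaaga
Ighv1-18: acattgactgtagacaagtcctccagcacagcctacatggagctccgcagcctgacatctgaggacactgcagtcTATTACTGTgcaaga
Igkv5-39: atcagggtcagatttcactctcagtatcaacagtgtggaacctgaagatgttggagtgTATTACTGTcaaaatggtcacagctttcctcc

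Both heavy-chain segments differ at 1 of these 90 bases and are 96.9% identical over their transcripts. Of the 302 windows of 50 bases in Ighv1-26, the read length, 35.8% are also in some other variable segment. Reads from these windows can therefore be lost from the counts. Igkv5-39 is better separated: its closest relative, Igkv5-45, is 90.5% identical. Of the 298 windows of Igkv5-39, 0 are in any other variable segment. Igkv5-39 was also the first kappa segment in 56Fe replicate 3 of month 9, with 31 of 158 counts, and in control replicates 1 and 3 of month 12, with 11 of 62 and 10 of 101 counts. In the 3 control livers of month 9, Ighv1-56 led the heavy-chain segments with 19, 16 and 13 counts. Ighv1-56 also came first in the 3 control livers of month 4, with 5, 5 and 4 counts, and in 56Fe replicate 3 of month 4, with 6.

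**Figure D3:**
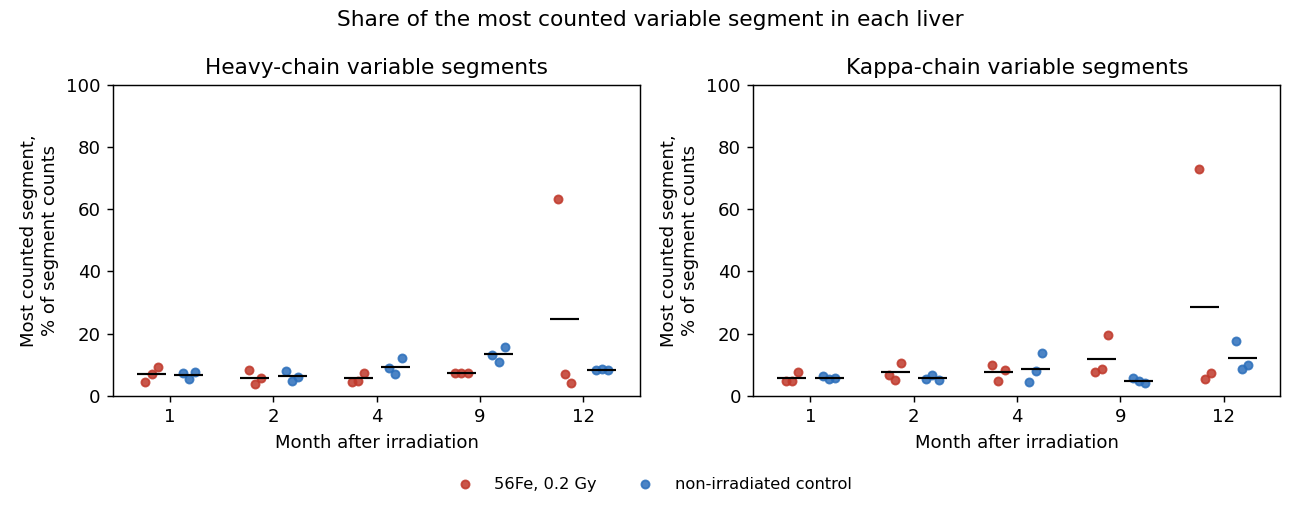
Share of the most counted variable segment among all heavy-chain (left) or kappa (right) variable segment counts, in percent, by month. Each point is 1 liver, 56Fe left of control, and the bar is the group mean (n = 3). One 56Fe liver of month 12 stands at 63.3 and 72.8%, and no other liver exceeds 15.7 and 19.6%.

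Cd3e and Cd3g passed in no comparison, and both were low. Cd3e (chr9:44998740-45009627) and Cd3g (chr9:44969572-44980431) encode signalling chains of the T cell receptor. Cd3e ranged from 0.15 to 1.14 CPM in 56Fe livers and from 0.202 to 0.88 CPM in control livers over the year. Cd3g ranged from 0.327 to 1 CPM in 56Fe livers and from 0.244 to 1.22 CPM in control livers. Cd3g was higher in all 3 56Fe livers of month 12, at 0.787 ± 0.189 CPM against 0.422 ± 0.134 CPM in control livers (SD, n = 3 each), but the edgeR adjusted p was 0.426. Cd3e overlaps the antisense gene Gm48719 and the predicted Gm48720. The strand setting of the counts is not given in the sources used here, so the level of Cd3e is uncertain.

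Cd8a (chr6:71373427-71379173), the co-receptor chain of cytotoxic T cells, had 1 to 12 counts per library, at 0.15 to 0.888 CPM in 56Fe livers and 0.0857 to 0.94 CPM in control livers. Over all 30 libraries Cd8a held 172 counts and Cd4, the co-receptor of helper T cells, 566 counts. Some dendritic cells also transcribe Cd4, so the sums do not count T cells. Variable genes of the T cell receptor held 15 to 118 counts per library and its constant genes 11 to 40.

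The cytotoxic genes were as low. Ccl5 (chr11:83525778-83530518), a chemokine of activated T and NK cells, ranged from 0.0923 to 0.771 CPM in 56Fe livers and from 0.0857 to 1.09 CPM in control livers. Nkg7 (chr7:43437073-43438249), a granule membrane protein, ranged from 0.0923 to 0.533 CPM in 56Fe livers and from 0.182 to 1.22 CPM in control livers. Its month 12 means were 0.313 ± 0.2 CPM in 56Fe livers and 0.762 ± 0.397 CPM in control livers (SD, n = 3 each), with overlapping ranges. That log2 difference of -1.26 was the only one of the irradiation tests with an unadjusted p under 0.05, and its edgeR adjusted p was 0.294. Gzma (chr13:113093825-113100981), a granule protease, had 1 to 13 counts in each library and was not tested. It ranged from 0.0671 to 0.89 CPM in 56Fe livers and from 0.0574 to 0.727 CPM in control livers.

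Cd79a (chr7:24897381-24902197), the signalling chain of the B cell receptor, passed in no comparison, unlike the antibody genes. In 56Fe livers it averaged 0.644, 0.784, 0.632, 0.335 and 0.425 CPM at months 1, 2, 4, 9 and 12. In control livers it averaged 0.8, 0.41, 0.456, 0.418 and 0.533 CPM. None of the 6 tested receptor and cytotoxic genes passed in any time comparison. Their log2 differences for month 12 against month 4 over both arms lay between -0.26 and 0.91, with a lowest adjusted p of 0.153 (edgeR).

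**Figure D4:**
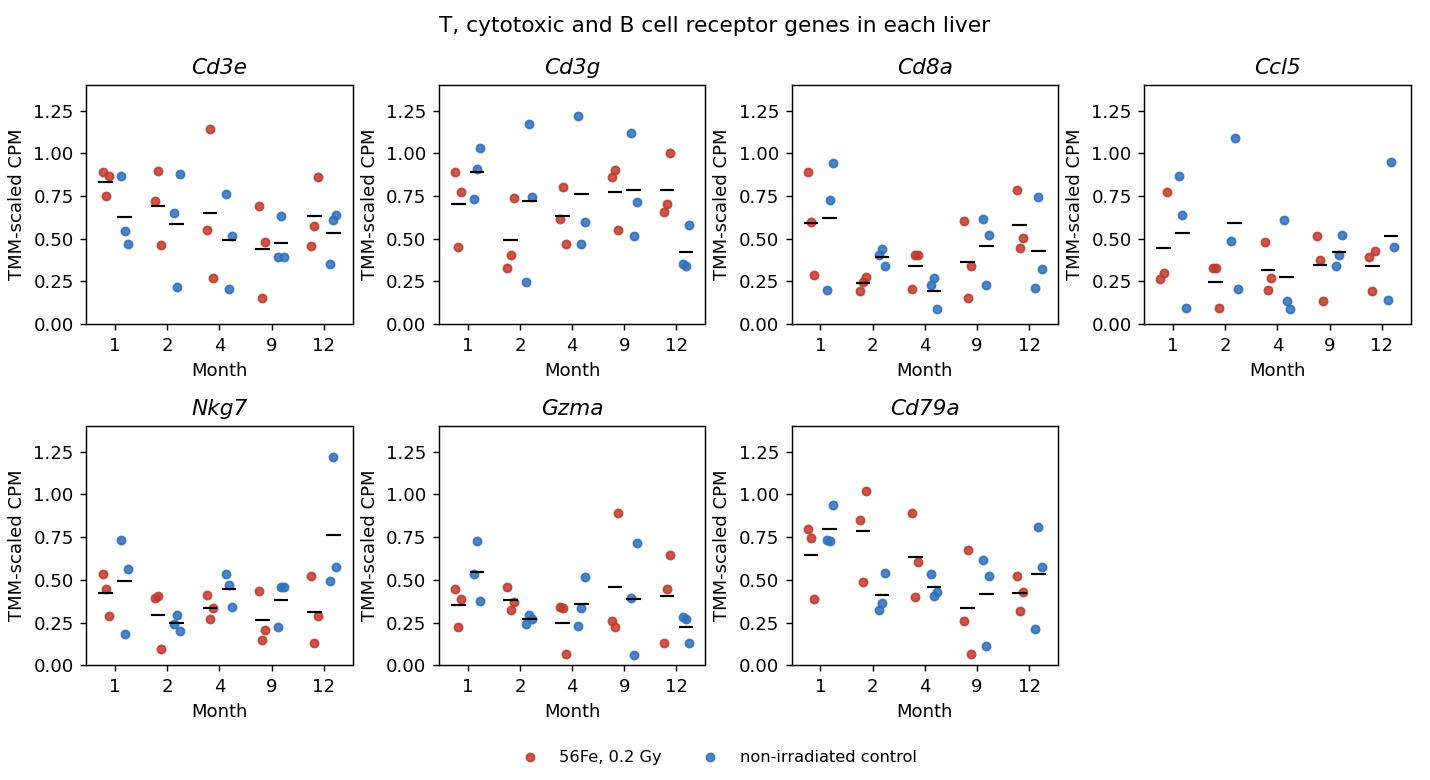
Level of the 7 T, cytotoxic and B cell receptor genes in each liver by month, in TMM-scaled CPM on 1 shared linear scale. Each point is 1 liver, 56Fe left of control, and the bar is the group mean (n = 3). All values lie at or below 1.22 CPM and the arms overlap at most months.

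Irradiation gave no call among the 9 tested genes at any month by edgeR, nor by limma voom or DESeq2 with all libraries in the fit. DESeq2 gave an adjusted p for 3 or 4 of the 9. Over months 1, 2, 4, 9 and 12, the share of all genes that passed was 4.6, 4.37, 3.6, 1.66 and 0%. The mean effect over the 5 months gave 0 of 9 (5.26% of all genes), and the test for an effect that differs between months gave 0 of 9 (11% of all genes). At an unadjusted p under 0.05 the count was 1 of 9 at month 12, Nkg7, and 0 in each of the other irradiation tests. The lowest adjusted p-values at months 1, 2, 4, 9 and 12 were 0.7, 0.351, 0.608, 0.401 and 0.294. The SE of the log2 difference between arms was 0.56 to 1.05 for the antibody genes.

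**Figure D5:**
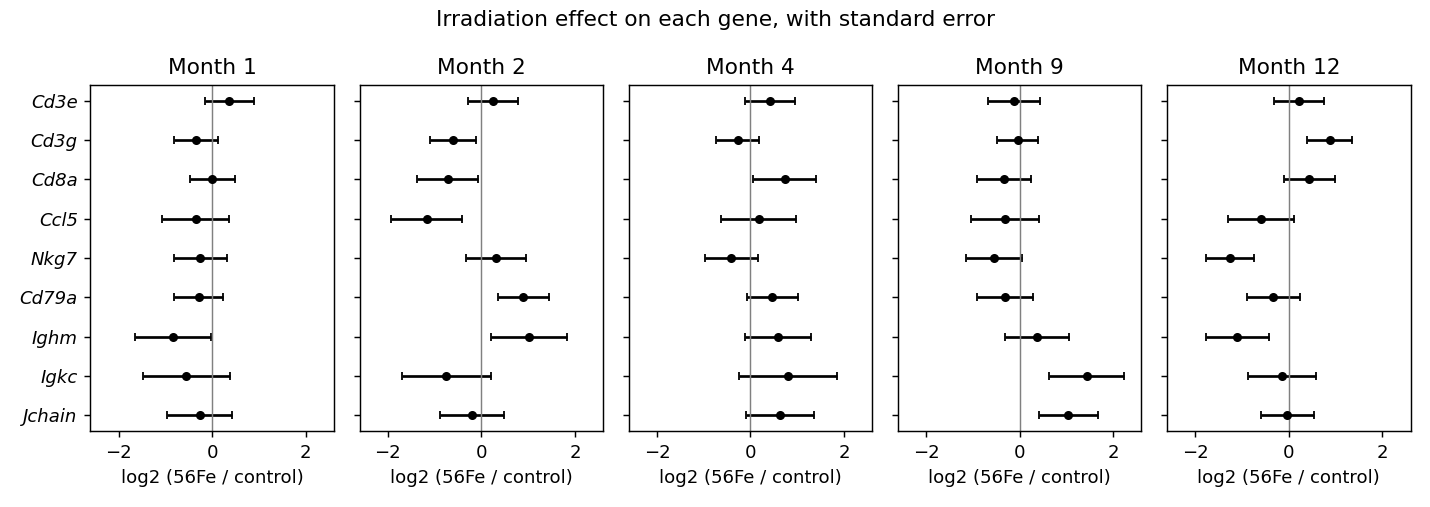
Log2 ratio of 56Fe to control for the 9 tested genes at each month, with the standard error of the edgeR fit. Values right of 0 are higher in 56Fe livers. No gene passes at any month, and Ighm lies at -0.84 at month 1 and 1.02 at month 2.

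The largest of these differences was that of Igkc at month 9. Igkc had 10.5, 2.25 and 8.63 CPM in 56Fe livers and 3.31, 2.53 and 2.02 CPM in control livers, a log2 difference of 1.43 (SE 0.80, adjusted p = 0.401). Jchain had 5.09, 2.18 and 4.65 CPM in 56Fe livers and 2.92, 1.21 and 1.63 CPM in control livers, a difference of 1.04 (SE 0.63, adjusted p = 0.445). The ranges of both genes overlapped between the arms. At month 4 the ranges did not overlap for Igkc and Jchain, 2 of the 10 genes where 30.2% of all genes did not overlap, with differences of 0.80 and 0.63 (adjusted p = 0.741 and 0.696).

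Ighm differed between the arms in opposite directions at months 1 and 2, without a call. At month 1 it had 4.17, 2.99 and 4.34 CPM in 56Fe livers and 6.33, 7.54 and 6.67 CPM in control livers. At month 2 it had 5.75, 6.09 and 7.66 CPM in 56Fe livers and 2.84, 4.08 and 2.64 CPM in control livers. The groups did not overlap at either month, lower in 56Fe at the first and higher at the second. The log2 differences were -0.84 (SE 0.81, adjusted p = 0.7) and 1.02 (SE 0.82, adjusted p = 0.503) in the fit of all 30 libraries, whose spread includes the late livers. With the 6 libraries of month 2 alone, where 4 of the 10 genes could be tested, Ighm passed (log2 difference 1.05, adjusted p = 0.00789), where 18.5% of all genes passed. The same fit for month 1 gave -0.79 (adjusted p = 0.0883), where 2.96% of all genes passed. At month 1, 1 of the 10 genes had groups that did not overlap, Ighm, beside 18.6% of all genes. At month 2 there were 3 of 10 beside 34.2%, with Cd8a lower and Gzma higher in all 3 56Fe livers. At month 9 it was 0 of 10 beside 18.2%, and at month 12 1 of 10, Cd3g, beside 15.5%. None of these shares of the 10 exceeded that of all genes.

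In the same months, Cd79b, also a B cell gene, differed in the same directions. The B cell list held 28 genes, of which 26 were tested. Cd79b, the partner of Cd79a, had 0.799, 1.05 and 0.674 CPM in 56Fe livers and 1.6, 3.09 and 1.69 CPM in control livers at month 1. At month 2 it had 1.05, 1.38 and 1.02 CPM in 56Fe livers and 0.487, 0.729 and 0.474 CPM in control livers. Its irradiation effect differed between the 5 months (edgeR adjusted p = 0.0224). That was 1 of 26 B cell genes beside 11% of all genes, no larger a share than the background. The effect also differed between months 2 and 1 (log2 difference of effects 2.32, SE 0.58, edgeR adjusted p = 0.0478). This last comparison was added after the values were seen, and 1 of 26 B cell genes passed in it beside 0.991% of all genes.

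The median log2 difference over the tested B cell genes was -0.35 at month 1 and 0.37 at month 2, beside -0.033 and -0.019 over all genes. Irradiation gave 0 calls among the 26 at month 1 and 1 at month 2 (edgeR), where 4.6 and 4.37% of all genes passed. Neither count exceeds the background share. The IgM share also differed at month 2: Ighm was 52.9 to 64.1% of heavy-chain constant counts in 56Fe livers and 20 to 30.7% in control livers, where the IgG share was the higher.

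The T cell list, with 29 of 35 genes tested, gave 1 irradiation call at a single month, Tox, a regulator of T cell development. It was at 3.73 ± 0.136 CPM in 56Fe livers and 10.4 ± 1.14 CPM in control livers at month 1 (SD, n = 3 each; log2 difference -1.47, adjusted p = 0.0208), where 4.6% of all genes passed. Tox, Tcf7 and Lef1, all transcription factors, passed the test for an effect that differs between months, 3 of 29 beside 11% of all genes. Both counts are no larger a share than the background. At month 1 Cd3e, Cd3g and Cd8a averaged 0.731, 0.797 and 0.607 CPM over both arms, below Tox. The cells that held Tox, Tcf7 and Lef1 were not tested. The NK and cytotoxic list, with 16 of 32 tested, gave none by edgeR.

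In the plasma cell list, with 20 of 24 tested, Derl3, a factor for disposing of misfolded proteins in the endoplasmic reticulum, was higher in 56Fe livers at month 1 (log2 difference 2.57, adjusted p = 0.0313) and lower at month 4 (-3.22, adjusted p = 0.014). At month 4 it had 0.891, 1.34 and 1.61 CPM in 56Fe livers and 10.3, 4.7 and 21.3 CPM in control livers. Edem2, which acts in the same compartment, and Xbp1, a transcription factor, passed the test for an effect that differs between months. Edem2 was also lower in 56Fe livers at month 2 (log2 difference -0.54, edgeR adjusted p = 0.0334). These were 3 of 20 genes for the effect by month, Derl3 included, beside 11% of all genes, and 1 of 20 at each of months 1, 2 and 4, beside 4.6, 4.37 and 3.6%, shares near the background. Hepatocytes also express these genes, and Igkc and Jchain passed in none of these tests.

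For month 12 against month 4 over both arms, where 8.6% of all genes were higher, 8 of 20 plasma cell genes were higher and 1, Edem2, lower, with a list median of 0.97 beside 0.052 for all genes. The 8 were Igkc, Jchain, 3 Ighg genes, Iglc2, Prdm1 and Slpi. Prdm1, the regulator that drives plasma cell maturation, was at 1.6 ± 0.888 CPM at month 12 and 0.641 ± 0.199 CPM at month 4 (SD, n = 6 each; log2 difference 1.30, adjusted p = 0.012, edgeR). From month 2 to month 4, across the step in library composition, Prdm1 had fallen (log2 difference -0.93, edgeR adjusted p = 0.0278), where 53.4% of all genes passed. Within single arms Prdm1 passed in neither, for month 12 against month 4 or against month 1. Of the 26 B cell genes 3 were higher, Ighm, Pou2af1 and Blnk, a share near that of all genes, with a list median of 0.15. Pou2af1, a coactivator of antibody gene transcription, was at 1 ± 0.791 CPM at month 12 and 0.342 ± 0.132 CPM at month 4 (2.82-fold, adjusted p = 0.0141). Within single arms Pou2af1 passed in control livers (log2 difference 2.14, edgeR adjusted p = 0.00885) and not in 56Fe livers. Of the 29 T cell genes 1 was higher, Tox, and of the 16 NK and cytotoxic genes none by edgeR.

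Against month 1, several genes of the B cell list fell at month 12 while Ighm rose. In control livers 8 of 26 fell, where 14.1% of all genes did, and 1, Ighm, rose. Among those that fell were Ebf1 and Pax5, which hold B cell identity, Ighd, the IgD heavy chain of mature unstimulated B cells, and Cd79b. Their log2 differences were -1.80 for Ebf1, -1.59 for Pax5, -1.75 for Ighd and -1.54 for Cd79b, with edgeR adjusted p-values between 0.000647 and 0.00575. In 56Fe livers 6 of 26 fell, near the 20.1% of all genes that did, led by Ciita, the master regulator of MHC class II genes, and Cr2, a complement receptor, and 2 rose, Ighm and Ralgps2. The list medians were -0.41 in 56Fe livers and -0.79 in control livers. This comparison crosses the change in library composition, and for month 12 against month 4 no B cell gene fell in either arm.

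Across the 30 libraries the antibody genes correlated more closely with one another than any other pair of members did. The 3 antibody genes correlated among themselves with Pearson r of 0.55 to 0.92 on the log2 scale. The other 7 correlated weakly with one another, with a median r of 0.12 over 21 pairs, from -0.25 to 0.36. With the antibody genes their median r was -0.06, from -0.29 to 0.48, the highest for Cd8a and Jchain. Among 17174 genes with a mean of at least 0.5 CPM, those most like the mean of Igkc and Jchain were Olfr701 (0.86), Scd2 (0.84), Noct (0.82), Ighg2c (0.82) and Ighg2b (0.81). These values describe 30 livers that share arms, months and library composition, and carry no test. The genes most like the T, cytotoxic and B cell means reached 0.78, 0.70 and 0.68, led by Spef2, Gm37352 and Cacng7, at counts too low to read as more than a ranking.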

How the data were processed

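The table deposited for the 30 livers holds raw counts of reads for each Ensembl gene. Per the labels, RNA of frozen slices was depleted of ribosomal RNA, and TruSeq libraries were read as paired 50-base ends. The authors' text names STAR 2.5.3a, GRCm38 and Gencode M14. Symbols and coordinates came from Gencode M21 (51633 identifiers matched; the 193 others held at most 0.0222% of a library). The series text gives more reads than the table sums to, so table totals were used as depth.

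The test was edgeR's robust quasi-likelihood fit (edgeR 4.0.16, R 4.3.3) with a coefficient for each group and TMM scaling. Genes passed filterByExpr (count 10, total 15), and p-values were adjusted over all genes tested by Benjamini-Hochberg. limma 3.58.1 (voom with sample weights) and DESeq2 1.42.0 were alternatives, as were RLE and upper quartile factors, 2 other low-count filters, a Gm26917 covariate, a replicate block, fewer libraries and leaving out each library. Likeness used log2 (CPM + 0.5). Intervals are Wilson 95% intervals. The 30 replicate pairs within groups all differed beyond counting noise (chi-square per gene of at least 10.16). On simulated data with known changes, the fit was tested first. p-values measure the spread between replicates that the labels call biological.

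The members and lists were chosen with earlier results of these data known. Named genes are the members, up to 8 passing genes of the T, NK and cytotoxic, B and plasma cell lists per comparison, and the 5 most alike genes. Gm26917, Ptprc, Cxcl13, Ighv1-56, Krt19, Epcam and Clec4f lie outside that rule, chosen with their values in view. So were the steps between neighbouring months, the difference in effect between months 2 and 1, the difference between the arms' changes (also without control replicate 2 of month 12), and the fit without 2 libraries of month 12. Figures were drawn with matplotlib 3.10.9 in Python 3.11.15. A gene of the B cell list is not reported here by name.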

Additional observations from a re-analysis of the deposited data

Results flagged for a closer look

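Ighm differed between months 1 and 2 in the direction of the irradiation difference. All 3 56Fe livers were below all 3 control livers at month 1 and above them at month 2. The difference itself was tested and did not pass: the adjusted p for an effect that differs between the 5 months was 0.402, and for month 2 against month 1 alone it was 0.554 (edgeR, log2 difference of effects 1.86, SE 1.15).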

How the results depend on the processing

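Among results for single genes, 2569 values under the alternatives stayed on their side of the threshold, 31 lost their call and 7 gained one. No called value changed sign, while 145 of the 2569 did so without a call. The rest of this paragraph gives numbers of the 10 members that passed. With the Gm26917 covariate, 0 passed for time in 56Fe livers, for month 12 against month 1 in either arm and for month 12 against month 4 in control livers or both arms. Within months 4, 9 and 12 alone, 0 passed for time in 56Fe livers. With limma voom, 1 passed for time and for month 12 against month 1 in control livers, and 2 for month 12 against month 4 in 56Fe livers, as with DESeq2. The cause was not tested. Leaving out 1 library gave 1 to 3 for time in control livers and 1 to 3 for month 12 against month 1 in control livers, the lowest without control replicate 2 of month 12. Without that library and 56Fe replicate 1 of month 12, chosen after the values were seen, 1 passed for month 12 against month 1 in control livers and 1 for month 12 against month 4 in 56Fe livers. The 6 libraries of month 2 alone gave 1 for irradiation, of 4 tested. With the replicate block the members' counts did not move, for example 3 for month 12 against month 4 in both arms. Replicate numbers did not pair the arms: same-number r ran from -0.384 to 0.346, 6 of 15 pairs were above 0.1 and 9 of 15 correlated best with their own number. Depth limits the T, NK and Cd79a genes, at 20 counts or fewer per library.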
